A study of Mus musculus with 24 samples.

Results

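The interaction of genotype and HDM treatment was measured in mouse lung as the HDM effect in IL-13 KO mice minus the HDM effect in wild-type mice, on log2 signals. All 12 samples of the series entered, 3 in each of the 4 groups that the sample titles name. The groups were wild-type (WT) lung after PBS, WT lung after HDM, lung of an IL-13 KO strain after PBS, and lung of that strain after HDM. Each sample has a set A and a set B oligonucleotide array, 24 arrays in all. No probe set was left out for low signal, so that genes near background in all groups but 1 could be seen, and 45037 of 45137 probe sets were tested. They stood for 18193 genes. HDM is the usual abbreviation of house dust mite allergen, which the labels do not spell out, and PBS is the salt solution given to the control mice. The labels give no strain background, age, sex, dose, route or schedule, nor do they state whether the 3 samples of a group were separate animals. The p-values therefore describe only the spread between these samples, and that spread could be technical.

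Interleukin 13 is a cytokine of type-2 immune responses. It acts on airway epithelium, smooth muscle, fibroblasts and macrophages through a receptor that it shares with interleukin 4, and the transcription factor STAT6 carries the signal to the nucleus. In allergen-exposed airways it is best known for mucous cell change, eotaxin production, chitinase-like proteins and airway hyperreactivity.

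A negative interaction means that HDM raised a signal less, or lowered it more, in KO than in WT lung. Signals are linear intensities, and differences are on the log2(signal + pseudocount) scale, with a pseudocount of 7 on set A and 11 on set B, which understates the change of dim probe sets. A probe set is said to be called where the p-value of limma, adjusted over all 45037 probe sets by the Benjamini-Hochberg method, was under 0.05. Sample names below give the group and the replicate number of the title.

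Lung identity was plain in all 12 samples: the surfactant gene Sftpc read 3790 to 7102, the club cell gene Scgb1a1 4255 to 6064 and the alveolar type 1 gene Ager 10016 to 22614. The arrays had median intensities of 69.5 to 77.7 (set A) and 83.5 to 93.7 (set B). Il13 itself was dim, at 4.65, 12.1 and 5.05 in WT PBS, 29.9, 15.96 and 15.5 in WT HDM, 3.30, 9.45 and 8.66 in KO PBS, and 8.71, 13.6 and 15.5 in KO HDM. Its interaction was -0.46 ± 0.40 (SE; adjusted p = 0.96), and it is no check of the labels, because the position of its probes relative to the deletion is unknown. Samples WT PBS 2, WT HDM 1 and WT HDM 2 carried skeletal muscle signal: the muscle troponin gene Tnnc2 read 413, 198 and 988 in them and under 10 in the other 9 samples. The ratio of the 5-prime to the 3-prime control probe sets of beta-actin, a sign of RNA integrity, was 0.464 to 0.656 on set A in KO HDM, against 0.695 to 0.832 in WT HDM, 0.748 to 0.854 in KO PBS and 0.409 to 0.898 in WT PBS. The same ratio for Gapdh overlapped between KO HDM (1.04 to 1.16) and WT HDM (1.09 to 1.16). As the tissue is whole lung, fewer cells of a type and less RNA per cell cannot be told apart in any result given here.

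A difference between the 2 genotypes in the HDM effect was called for a small number of genes. Most of them rose in WT lung and rose less, or had no called rise, in KO lung. The interaction was called for 22 probe sets, 0.0488% of those tested, of which 20 were lower (0.0444%) and 2 were higher (0.00444%). They stood for 20 genes, with the IgA transporter Pigr on 2 probe sets and 1 probe set, 1443451_at, with no single gene in the annotation. Set A held 19 of them and set B 3. An unadjusted p under 0.05 was reached by 2491 probe sets, 1297 lower and 1194 higher, and the median interaction over all probe sets was 0.01. The 95% interval of a probe set, which is not adjusted for the number tested, reached a median of 0.74 log2 units to either side of its value. A call needed more than an interval that leaves out 0. The smallest called interaction was 1.16 in size, and a dim Fcer2a probe set at -2.14 was not called (adjusted p = 0.24). With 3 samples a group, a missing call is therefore no sign that the genotypes were alike.

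The called probe sets fell into a few shapes. They were picked by the interaction, which is made of the same group means as the comparisons below. High shares among them therefore follow in part from that choice and only describe the shapes. Of the 20 lower ones, 18 were also called higher after HDM in WT lung, where 2.49% of all probe sets were. In KO lung after HDM, 3 of the 20 were called higher (2.83% of all) and 5 were called lower (2.69% of all). Of the 22, 21 differed between KO and WT lung after HDM (0.346% of all), and 0 of 22 differed after PBS (0.0289% of all). In 17 of the 22, all 3 WT HDM samples lay above every other sample, which held for 1.53% of all probe sets. All 3 KO HDM samples lay below every other sample in 5 of the 22 (1.27% of all) and above every other sample in 1 (1.81% of all), and the WT HDM samples lay lowest in 1 (1.3% of all).

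**Figure D1:**
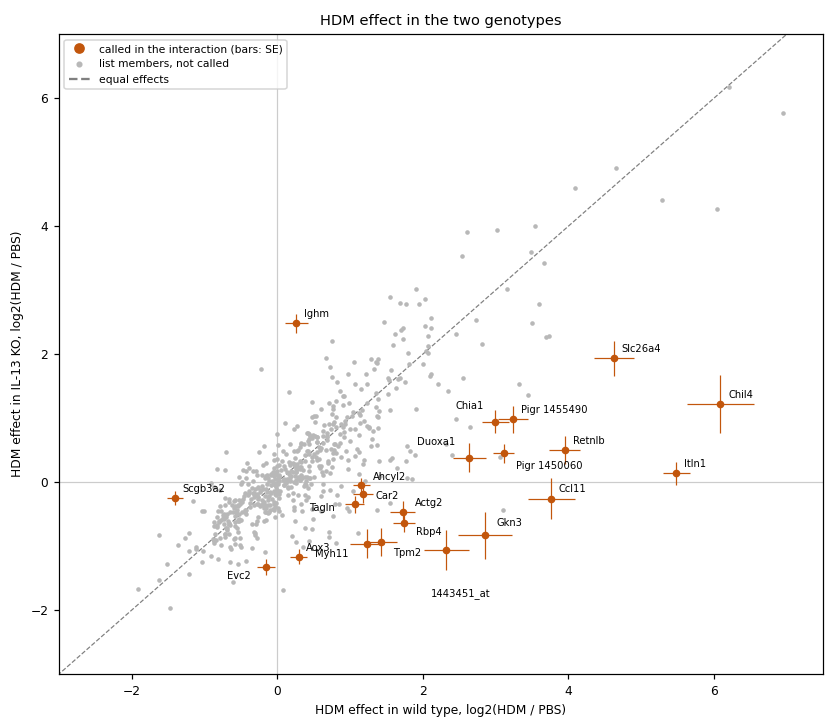
HDM effect in WT lung (x axis, log2) against HDM effect in KO lung (y axis, log2) for the 22 probe sets called for the interaction (orange, named, with SE bars) and the uncalled genes of the lists (grey), with a dashed line of equal effects; n = 3 samples a group. The called points lie off the line, 20 of them below it and 2 (Ighm and Scgb3a2) above it.

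**Figure D2:**
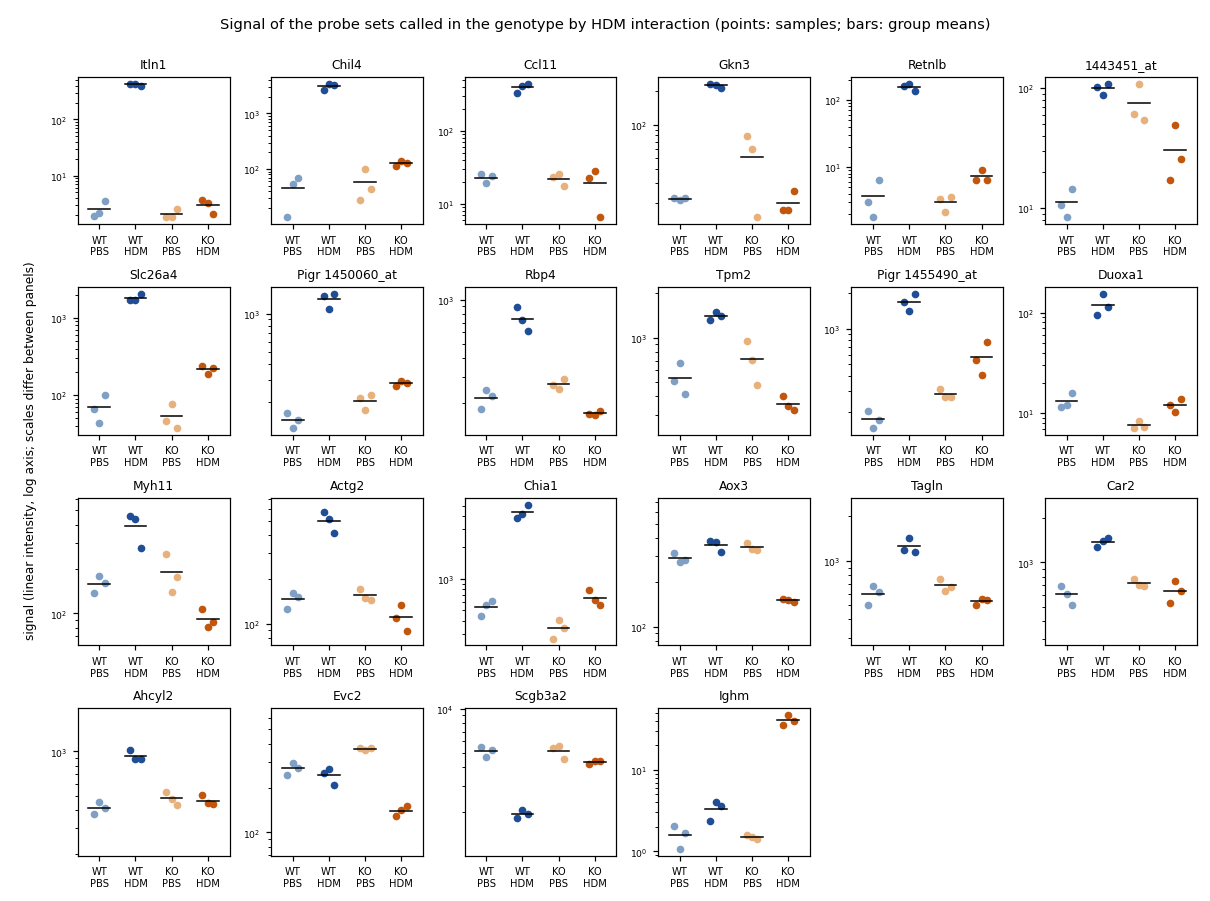
Signal of each called probe set in every sample (points, linear intensity on a log axis) with the group mean (bar), for the 4 groups of 3 samples. In 17 of the 22 panels the 3 WT HDM samples lie above all others.

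To show the DNA before some of these genes, RefSeq windows from 250 bases before to 50 bases after an annotated start (GRCm38.p6) were searched on both strands. The motifs were the STAT6 form (TTC and GAA with 4 bases of any kind in between), the general STAT form (the same with 3 bases in between), the CArG box of muscle and serum-response promoters, and TATAAA. Only 12 of the 20 called genes had a window (15 windows), too few for a comparison of shares between called and other genes, which is void for that reason. Ccl11, Actg2, Tagln, Myh11, Retnlb, Car2, Scgb3a2 and Ighm had no window. Over all 32851 windows of this length, 6.95% held the STAT6 form, 8.3% the general STAT form, 1.63% a CArG box and 13.6% TATAAA. Among the 12 genes, the STAT6 form was found for 1 (Rbp4, in 1 of its windows), the general STAT form for 3 (Ahcyl2, Chil4 and Pigr), a CArG box for 1 (Itln1) and TATAAA for 5 (Ahcyl2, Chia1, Chil4, Rbp4 and Slc26a4). The windows of Aox3, Duoxa1, Evc2, Gkn3 and Tpm2 held none of these motifs. To show where the letters lie, 4 windows picked because they hold a STAT form or a CArG box are printed 5′ to 3′ on the gene's own strand, with the motif in capitals. A match is a description of the letters and not evidence of a site in use. Positions count from 1 at the annotated start, with negative numbers before it.
Itln1, chr1:171535245-171535544 (minus strand), CArG box at position -30: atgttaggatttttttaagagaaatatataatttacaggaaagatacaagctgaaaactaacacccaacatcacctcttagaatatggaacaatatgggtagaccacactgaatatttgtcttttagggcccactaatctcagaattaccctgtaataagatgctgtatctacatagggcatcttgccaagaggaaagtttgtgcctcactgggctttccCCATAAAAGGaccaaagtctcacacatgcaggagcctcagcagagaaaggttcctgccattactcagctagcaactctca
Pigr, chr1:130826434-130826733 (plus strand), STAT form at position 40: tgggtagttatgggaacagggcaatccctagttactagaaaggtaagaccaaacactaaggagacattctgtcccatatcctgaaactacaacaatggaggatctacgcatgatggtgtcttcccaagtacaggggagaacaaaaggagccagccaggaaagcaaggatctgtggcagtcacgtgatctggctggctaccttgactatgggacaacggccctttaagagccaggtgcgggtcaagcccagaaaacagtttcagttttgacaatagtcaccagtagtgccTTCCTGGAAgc
Rbp4, chr19:38125272-38125571 (minus strand), STAT6 form at position -120: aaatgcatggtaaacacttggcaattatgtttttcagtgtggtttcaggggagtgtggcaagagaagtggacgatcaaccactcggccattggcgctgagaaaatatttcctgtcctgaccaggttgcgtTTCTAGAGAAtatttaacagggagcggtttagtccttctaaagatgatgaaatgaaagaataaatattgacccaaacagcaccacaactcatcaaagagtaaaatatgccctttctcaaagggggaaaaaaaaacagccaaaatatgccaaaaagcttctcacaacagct
Chil4, chr3:106219430-106219729 (minus strand), STAT form at position -200: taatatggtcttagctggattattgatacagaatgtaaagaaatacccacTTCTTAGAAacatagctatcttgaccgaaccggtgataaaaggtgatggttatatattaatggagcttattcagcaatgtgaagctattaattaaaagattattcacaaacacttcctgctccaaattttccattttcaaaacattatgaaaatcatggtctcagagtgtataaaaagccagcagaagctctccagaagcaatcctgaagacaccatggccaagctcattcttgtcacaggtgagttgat

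Itln1 and Retnlb, secretory genes of mucous epithelium, were near background in all groups but WT HDM. Itln1, which encodes intelectin 1, a lectin of goblet cells that binds microbial glycans, read 1.87, 2.19 and 3.55 in WT PBS, 423, 437 and 400.4 in WT HDM, 1.80, 1.86 and 2.57 in KO PBS, and 3.66, 3.22 and 2.07 in KO HDM. WT HDM stood alone, and the 3 other groups shared the same near-background range. The WT effect was 5.49 (adjusted p = 4.5e-08) and the KO effect 0.14 (adjusted p = 0.76), which gave an interaction of -5.35 ± 0.26 (SE; 95% interval -5.92 to -4.79; adjusted p = 3.7e-06). Retnlb, which encodes resistin-like molecule beta, a goblet cell product, read 3.02, 1.77 and 6.34 in WT PBS, 160.2, 176 and 136 in WT HDM, 3.38, 2.13 and 3.61 in KO PBS, and 6.43, 8.89 and 6.42 in KO HDM. The 3 KO HDM samples were the highest outside WT HDM, but the KO effect of 0.50 was not called (adjusted p = 0.22). Its interaction was -3.45 ± 0.30 (95% interval -4.10 to -2.80; adjusted p = 0.0010). Both calls held in each of the 12 fits that left out 1 sample. Some mouse strains carry a near-identical intelectin copy, which a probe set cannot be assumed to tell apart.

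Pigr, which encodes the receptor that carries polymeric IgA and IgM across epithelium, was called on both of its probe sets. On 1450060_at it read 163, 125 and 144 in WT PBS, 1379, 1095 and 1431 in WT HDM, 215, 173 and 228 in KO PBS, and 268, 295 and 282 in KO HDM. All 4 groups were apart from one another, with KO PBS above WT PBS and KO HDM far below WT HDM. The WT effect was 3.11 (adjusted p = 6.1e-07), the KO effect 0.45 (adjusted p = 0.10) and the interaction -2.66 ± 0.21 (95% interval -3.11 to -2.21; adjusted p = 0.00043), called in all 12 fits that left out 1 sample. On 1455490_at it read 203, 145 and 171 in WT PBS, 1699, 1407 and 1972 in WT HDM, 309, 263 and 265 in KO PBS, and 544, 406 and 774 in KO HDM. Here the KO effect of 0.98 was also called (adjusted p = 0.018), a rise of less than that in WT lung (3.24), and the KO call was lost without KO PBS 2, KO PBS 3, KO HDM 1 or KO HDM 3 (adjusted p 0.052 to 0.067). Its interaction, -2.26 ± 0.30 (adjusted p = 0.023), stayed called only without WT PBS 1, WT HDM 2, KO HDM 2 or KO HDM 3 (adjusted p 0.053 to 0.085 in the other 8 fits). With the actin ratio as a covariate it was -2.01 (adjusted p = 0.15).

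Gkn3, which encodes a gastrokine of the stomach lining, read 21.8, 21.0 and 21.9 in WT PBS, 233, 227 and 213 in WT HDM, 78.5, 60.1 and 14.7 in KO PBS, and 17.0, 17.3 and 25.5 in KO HDM. WT HDM was uniform and high, while the KO PBS samples were split, with 1 of the 3 below all WT PBS samples. The WT effect was 2.85 (adjusted p = 0.00086), the KO effect -0.83 (adjusted p = 0.25) and the interaction -3.69 ± 0.52 (adjusted p = 0.032). The interaction was called in 1 of the 12 fits that left out 1 sample, that without KO PBS 3, and had adjusted p of 0.075 to 0.12 in the others. With the actin ratio as a covariate it was -3.61 (adjusted p = 0.21). A further Gkn3 probe set, whose suffix marks possible cross-hybridisation, gave -0.78 (adjusted p = 0.79). The called probe set is on set B, where samples of a group correlated at 0.887 to 0.927 (Spearman), against 0.962 to 0.98 on set A.

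Both chitinase-family genes called for the interaction rose steeply in WT lung. Chil4, a chitinase-like protein of allergic airways, read 13.4, 53.8 and 69.5 in WT PBS, 2697, 3470.0 and 3198 in WT HDM, 27.5, 101 and 43.1 in KO PBS, and 111, 141 and 129 in KO HDM. The 3 KO HDM samples lay above every PBS sample but more than an order of magnitude below WT HDM. The WT effect was 6.09 (adjusted p = 1.4e-05), the KO effect 1.22 (adjusted p = 0.16) and the interaction -4.87 ± 0.65 (95% interval -6.28 to -3.46; adjusted p = 0.023). Chia1, the acidic mammalian chitinase, an enzyme that degrades chitin, read 445, 564 and 616 in WT PBS, 3826, 4167 and 5119.6 in WT HDM, 269, 405 and 338 in KO PBS, and 776, 626 and 558 in KO HDM. It rose in both genotypes, by 2.998 in WT (adjusted p = 3.2e-06) and by 0.95 in KO (adjusted p = 0.010), and the rises differed by -2.05 ± 0.26 (95% interval -2.61 to -1.49; adjusted p = 0.018). The Chil4 interaction stayed called only without WT PBS 1, WT PBS 2, WT PBS 3, KO PBS 1 or KO PBS 2 (adjusted p 0.053 to 0.089 in the other 7 fits). That of Chia1 was lost without WT HDM 2, KO PBS 3, KO HDM 2 or KO HDM 3 (adjusted p 0.052 to 0.072). Chil4 is close in sequence to Chil3, which read on average 563 in WT PBS, 3711 in WT HDM, 549 in KO PBS and 3203 in KO HDM, with an interaction of -0.21 (adjusted p = 0.97).

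Among genes of epithelial transport, Slc26a4, which encodes the anion exchanger pendrin, read 66.8, 43.1 and 101 in WT PBS, 1699, 1711 and 2034 in WT HDM, 46.8, 77.3 and 37.6 in KO PBS, and 241, 187 and 227 in KO HDM. HDM groups stood above PBS groups in both genotypes without overlap, and WT HDM stood above KO HDM. Slc26a4 rose by 4.62 in WT (adjusted p = 2.5e-06) and by 1.93 in KO (adjusted p = 0.0016), with an interaction of -2.69 ± 0.39 (95% interval -3.53 to -1.85; adjusted p = 0.033). Car2, a cytosolic carbonic anhydrase, read 693, 612 and 514 in WT PBS, 1268, 1387 and 1459 in WT HDM, 774, 700.2 and 688 in KO PBS, and 530.3, 742 and 637 in KO HDM. The KO groups overlapped, and the interaction was -1.37 ± 0.20 (adjusted p = 0.035). Ahcyl2, a regulator of bicarbonate transport, read 377, 455 and 411 in WT PBS, 1016, 887 and 887 in WT HDM, 528, 479 and 432 in KO PBS, and 507, 447 and 437 in KO HDM, again with overlapping KO groups. Its interaction was -1.20 ± 0.17 (adjusted p = 0.028), and its other 2 probe sets gave -0.55 and -0.85, neither called. Each of these calls depended on single samples. Slc26a4 stayed called only without WT PBS 3 or KO PBS 3 (adjusted p 0.051 to 0.12 in the other 10 fits), Car2 only without WT PBS 1 or KO HDM 2 (0.080 to 0.13), and Ahcyl2 only without WT PBS 2 or KO PBS 3 (0.060 to 0.11). With the actin ratio as a covariate the adjusted p was 0.26 for Slc26a4, 0.26 for Car2 and 0.065 for Ahcyl2.

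Ccl11, the eosinophil attractant eotaxin, read 25.3, 19.4 and 24.0 in WT PBS, 333, 420.1 and 453 in WT HDM, 23.5, 25.3 and 17.3 in KO PBS, and 22.9, 27.8 and 6.47 in KO HDM. Of the KO HDM samples, 1 lay within the range of the PBS samples, 1 above it and 1 below it, all far under WT HDM. Its WT effect was 3.77 (adjusted p = 4.4e-05), its KO effect -0.26 (adjusted p = 0.74) and its interaction -4.02 ± 0.46 (95% interval -5.03 to -3.02; adjusted p = 0.0077), called in all 12 fits that left out 1 sample. With the actin ratio as a covariate the interaction was -3.96 (adjusted p = 0.065). The other eotaxin, Ccl24, read on average 15.9 in WT PBS, 216 in WT HDM, 19.7 in KO PBS and 70.5 in KO HDM, and its interaction of -1.80 was not called (adjusted p = 0.58). Ccr3, their receptor on eosinophils, gave -0.65 (adjusted p = 0.95).

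HDM raised 4 contractile genes of smooth muscle in WT lung, while their KO effects were negative and were called for Tpm2 and Myh11. Actg2, the gamma actin of smooth muscle, read 125, 161 and 152 in WT PBS, 569, 517 and 416 in WT HDM, 172, 149 and 145 in KO PBS, and 109.8, 135 and 89.7 in KO HDM. Tagln, the actin-binding protein transgelin, read 503, 674 and 616 in WT PBS, 1192, 1428 and 1148 in WT HDM, 750.5, 625 and 667 in KO PBS, and 501, 551 and 544 in KO HDM. In both genes the WT HDM samples were above all others, and each KO HDM sample was below each KO PBS sample. The interactions were -2.19 ± 0.25 for Actg2 (95% interval -2.73 to -1.66; adjusted p = 0.0076) and -1.42 ± 0.18 for Tagln (95% interval -1.82 to -1.01; adjusted p = 0.022). The KO effects of -0.47 and -0.35 were not called (adjusted p = 0.16 for each).

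Tpm2, beta tropomyosin, read 505, 670.2 and 415 in WT PBS, 1320.4, 1495 and 1404 in WT HDM, 952, 707 and 476 in KO PBS, and 403, 342 and 323 in KO HDM. Myh11, the smooth muscle myosin heavy chain, read 138, 179 and 159.8 in WT PBS, 456, 435 and 278 in WT HDM, 254, 140.0 and 176 in KO PBS, and 107, 81.0 and 87.8 in KO HDM. In these 2 genes WT HDM lay above and KO HDM below all other samples, so that the effects had opposite signs. Tpm2 rose by 1.42 in WT (adjusted p = 0.0029) and fell by 0.94 in KO (adjusted p = 0.030), and its interaction was -2.36 ± 0.32 (95% interval -3.05 to -1.67; adjusted p = 0.023). Myh11 rose by 1.23 in WT (adjusted p = 0.0092) and fell by 0.96 in KO (adjusted p = 0.034), and its interaction was -2.19 ± 0.33 (95% interval -2.91 to -1.47; adjusted p = 0.048). Tpm2's other 3 probe sets gave -0.73, -1.52 and -1.10, and a dim further probe set of Myh11 gave -0.39, none of them called.

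The Actg2 interaction stayed called in all 12 fits that left out 1 sample. Tagln stayed called only without WT PBS 1, WT PBS 2, WT HDM 3 or KO PBS 2 (adjusted p 0.053 to 0.088 in the other fits), Tpm2 only without WT PBS 2, KO PBS 1 or KO PBS 3 (0.061 to 0.093), and Myh11 only without WT HDM 3 or KO PBS 2 (0.083 to 0.17). The fall in KO lung was lost for Tpm2 without KO PBS 1, KO PBS 2 or any KO HDM sample (adjusted p 0.053 to 0.11) and for Myh11 without KO PBS 1, KO PBS 3 or any KO HDM sample (0.052 to 0.12). Skeletal muscle signal was present in WT HDM 1 and WT HDM 2 and absent in WT HDM 3, where Tnnc2 read 6.59 while Actg2 read 416, Tagln 1148, Tpm2 1404 and Myh11 278. In a fit without the 3 samples that carry that signal, where 1 WT HDM sample remains, the interactions were -2.01 for Actg2, -1.38 for Tagln, -2.54 for Tpm2 and -1.84 for Myh11, with adjusted p of 0.23, 0.21, 0.21 and 0.38. With the actin ratio as a covariate they were -2.30, -1.56, -2.62 and -2.35, with adjusted p of 0.039, 0.0498, 0.0498 and 0.15. Actins are close in sequence, so probe sets of Actg2 and Acta2 may share signal.

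Over the whole list of smooth muscle contractile genes, 25 were measured, 4 were called lower (against 0.0934% of all genes) and 0 were called higher (0.0055%). The interaction was negative in 23 of 25, with a median of -0.58, while it was negative in 8501 of 18193 genes over all, with a median of 0.03. The list was chosen with earlier results of these data known, so its counts describe it and are no independent support. In WT lung after HDM 6 of the 25 were called higher (3.95% of all genes) and 3 lower (3.53%), and in KO lung 0 were called higher (4.16%) and 8 lower (3.73%). Acta2, the alpha actin of smooth muscle, gave -1.18 (adjusted p = 0.059), the calponin gene Cnn1 -1.76 (0.24), the leiomodin gene Lmod1 -1.58 (0.39) and the light chain gene Myl9 -1.07 (0.16). Summed signal of the list was 12405 to 15136 in WT PBS, 16557 to 18312 in WT HDM, 13458 to 15156 in KO PBS and 10308 to 10987 in KO HDM. Among regulators and receptors of smooth muscle 0 of 22 were called, with a median of -0.08, and among pericyte genes 0 of 14, with a median of -0.11. Cardiac genes, which whole lung holds in the walls of its veins, had 0 of 17 called and a median of -0.37. After HDM 2 of them fell and 0 rose in WT lung (median effect -0.31). In KO lung 7 fell and 0 rose (median effect -0.55). Cardiac sums were 2335 to 2890 in KO HDM, against 3070 to 3626 in WT HDM, 3752 to 6614 in KO PBS and 4111 to 4877 in WT PBS. Skeletal muscle genes had 0 of 20 called and a median of -0.68, with sums of 1048 to 4726 in WT PBS, 997 to 9653 in WT HDM, 809 to 1271 in KO PBS and 783 to 914 in KO HDM. With the skeletal muscle signal of each sample as a covariate the interaction was -2.10 for Actg2 (adjusted p = 0.014), -1.32 for Tagln (0.017), -2.26 for Tpm2 (0.0495) and -2.05 for Myh11 (0.074). The part of the cardiac signal in the smooth muscle result was not tested.

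**Figure D3:**
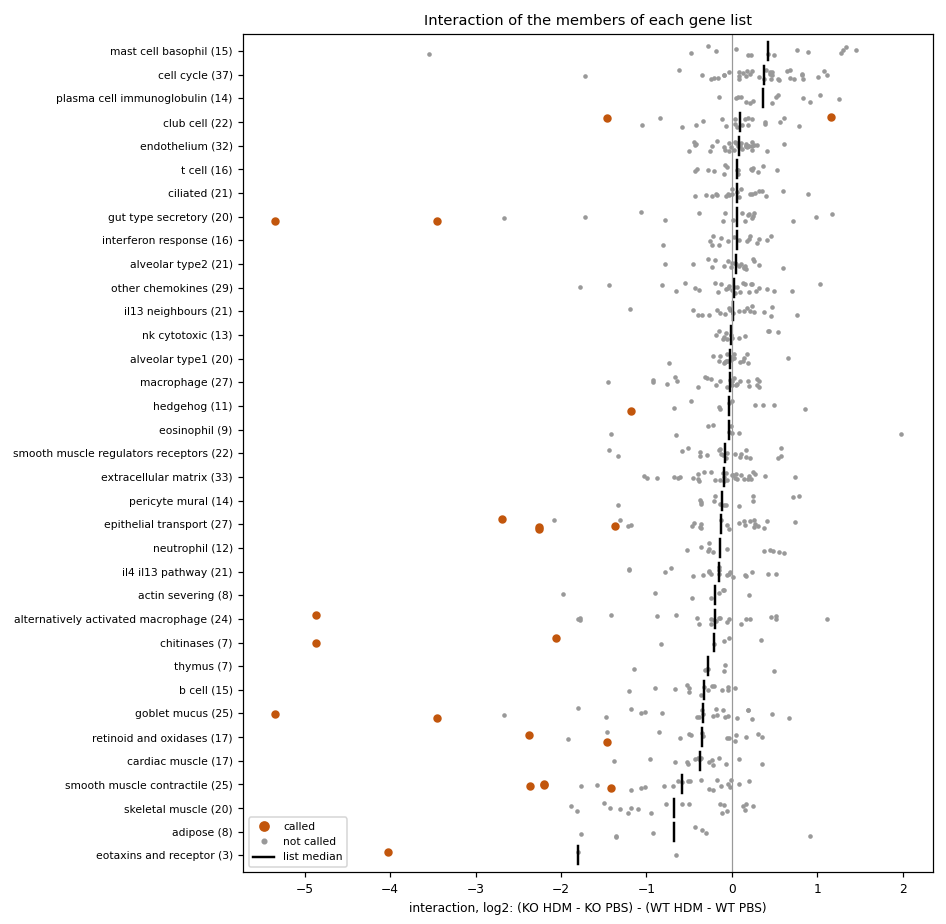
Interaction of each measured gene (points, log2, KO effect minus WT effect) in each gene list (rows, with the number measured), with the list median as a black line and called genes in orange; 1 probe set a gene, n = 3 samples a group. Contractile genes of smooth muscle have a median of -0.58 and 4 called genes, while the median over all 18193 genes is 0.03. The lists were chosen with earlier results of these data known.

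Rbp4 and Aox3, the 2 genes called lower among 17 of retinoid handling and oxidases (median -0.35), fell in KO lung. Rbp4, the retinol carrier, read 181, 243 and 223 in WT PBS, 890.0, 724 and 611 in WT HDM, 265, 249 and 289 in KO PBS, and 167, 166 and 176 in KO HDM. All 4 groups were apart from one another, with WT HDM highest and KO HDM lowest. Rbp4 rose by 1.74 in WT (adjusted p = 4.4e-05) and fell by 0.64 in KO (adjusted p = 0.029), with an interaction of -2.38 ± 0.21 (95% interval -2.84 to -1.92; adjusted p = 0.0011). The interaction stayed called in all 12 fits that left out 1 sample, but the fall in KO lung was lost without any 1 of the 6 KO samples (adjusted p 0.051 to 0.11). Aox3, an aldehyde oxidase that can turn retinal into retinoic acid, read 317, 275 and 285 in WT PBS, 382, 376 and 323 in WT HDM, 372, 339 and 332 in KO PBS, and 153, 152 and 147 in KO HDM. WT HDM overlapped the range of KO PBS, and KO HDM stood alone below all other samples.

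Aox3 fell by 1.17 in KO (adjusted p = 0.00011) and had a WT effect of 0.29 that was not called (adjusted p = 0.19). Its interaction was -1.46 ± 0.16 (95% interval -1.80 to -1.11; adjusted p = 0.0060) and held in all 12 fits that left out 1 sample. Evc2, a membrane protein at the base of cilia that takes part in hedgehog signalling, read 246, 297 and 273 in WT PBS, 253, 269.7 and 211 in WT HDM, 372, 359.9 and 375 in KO PBS, and 128, 141 and 151 in KO HDM. Here the KO groups lay on either side of the overlapping WT groups. Evc2 fell by 1.33 in KO (adjusted p = 9.9e-05), its WT effect was -0.15 (adjusted p = 0.64), and its interaction of -1.18 ± 0.18 (adjusted p = 0.048) stayed called only without WT HDM 3 (adjusted p 0.070 to 0.17 in the other 11 fits). The difference between KO and WT after HDM, -0.75 for Evc2 (adjusted p = 0.025), was lost without WT HDM 1, WT HDM 2 or any KO HDM sample (adjusted p 0.070 to 0.13). KO HDM samples also had lower actin ratios than WT HDM samples on both array sets. With that ratio as a covariate the interaction was -2.52 for Rbp4 (adjusted p = 0.0065), -1.39 for Aox3 (0.0498) and -1.28 for Evc2 (0.15).

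Duoxa1, which encodes the maturation factor of the hydrogen peroxide-forming dual oxidase of airway epithelium, was dim outside WT HDM. It read 11.5, 11.9 and 15.7 in WT PBS, 93.9, 153 and 113 in WT HDM, 7.12, 8.29 and 7.20 in KO PBS, and 11.96, 10.1 and 13.9 in KO HDM. KO PBS lay below WT PBS without overlap, and KO HDM overlapped WT PBS. The WT effect was 2.64 (adjusted p = 3.7e-05), the KO effect 0.38 (adjusted p = 0.40) and the interaction -2.26 ± 0.32 (95% interval -2.94 to -1.57; adjusted p = 0.029). It stayed called only without WT HDM 1 (adjusted p 0.064 to 0.11 in the other 11 fits), and with the actin ratio as a covariate its adjusted p was 0.15.

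The positive interactions were those of Ighm and Scgb3a2. The probe set 1427869_at of Ighm, the heavy chain of IgM, read 2.03, 1.06 and 1.70 in WT PBS, 2.32, 4.06 and 3.62 in WT HDM, 1.58, 1.49 and 1.39 in KO PBS, and 35.2, 47.2 and 39.8 in KO HDM. KO HDM stood alone, and all other samples were at the bottom of the scale. The KO effect was 2.48 (adjusted p = 5.4e-06), the WT effect 0.26 (adjusted p = 0.45) and the interaction 2.22 ± 0.22 (95% interval 1.75 to 2.69; adjusted p = 0.0022), called in all 12 fits that left out 1 sample. The 10 other Ighm probe sets gave interactions of -0.29 to 1.80, none called. Where they were bright, both HDM groups were high: 1425324_x_at averaged 50.1 in WT PBS, 1843 in WT HDM, 65.3 in KO PBS and 4734 in KO HDM. Immunoglobulin probe sets can share sequence, so the called probe set does not stand for Ighm as a whole. Among 14 plasma cell and immunoglobulin genes represented by their brightest probe set, 0 were called for the interaction, 1 had a negative value and the median was 0.36, while 8 were called higher after HDM in WT lung (3.95% of all genes) and 10 in KO lung (4.16%).

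Scgb3a2, a secretoglobin of club cells, read 5503, 4703 and 5236 in WT PBS, 1819.5, 2060.4 and 1939 in WT HDM, 5375, 5544 and 4546 in KO PBS, and 4188, 4389.7 and 4414 in KO HDM. The WT HDM samples lay below all others, and the KO HDM samples lay below the KO PBS samples by a smaller step. Scgb3a2 fell by 1.40 in WT (adjusted p = 2.7e-05) and its KO effect was -0.25 (adjusted p = 0.27), so that the interaction was 1.16 ± 0.16 (95% interval 0.81 to 1.51; adjusted p = 0.029). It stayed called only without WT PBS 2 (adjusted p 0.061 to 0.11 in the other 11 fits), and with the actin ratio as a covariate its value was 1.25 (adjusted p = 0.12). Over 22 club cell genes 1 was called lower and 1 higher, with a median of 0.09. In WT lung 9 of them fell (3.53% of all genes) and 1 rose (3.95%), and in KO lung 7 fell (3.73%) and 1 rose (4.16%). Scgb1a1, the main club cell secretoglobin, gave 0.12, which was not called and turned sign under quantile normalization.

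The probe set with no single gene, 1443451_at on set B, read 10.7, 8.36 and 14.4 in WT PBS, 102, 87.5 and 109 in WT HDM, 61.3, 109 and 54.8 in KO PBS, and 17.2, 48.8 and 25.9 in KO HDM. It was high in WT after HDM and in KO after PBS, with overlap between those groups, and the PBS groups were apart. The WT effect was 2.33 (adjusted p = 0.0010), the KO effect -1.07 (adjusted p = 0.071), and the genotypes differed by 1.91 after PBS (adjusted p = 0.12) and by -1.48 after HDM (adjusted p = 0.091). Its interaction of -3.39 ± 0.44 (adjusted p = 0.022) stayed called only without WT PBS 3, KO PBS 2, KO PBS 3 or KO HDM 2 (adjusted p 0.054 to 0.089 in the other 8 fits). With the actin ratio as a covariate it was -3.17 (adjusted p = 0.15).

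Probe sets dim in 3 groups and bright in 1 were taken by a fixed rule: the 3 other group means under the 30th percentile of the probe-set means (33.9 on set A, 43.2 on set B), every sample of the bright group above it, and the bright group's mean at least 3 times the next. WT HDM was the bright group for 21 probe sets of 20 genes, KO HDM for 3, KO PBS for 3 and WT PBS for 0. The interaction was called for 4 of the 21 (Itln1, Retnlb, Ccl11 and Duoxa1), for 1 of the 3 bright in KO HDM (Ighm) and for 0 of the 3 bright in KO PBS, against 0.0488% of all probe sets. The rule itself fixes the sign of most of these interactions, so the counts describe the class and are no support for it. WT HDM exceeded the next group by 141 times for Itln1, 21.7 for Retnlb, 17.6 for Ccl11 and 9.18 for Duoxa1. With a required ratio of 2 the numbers were 35 for WT HDM, 23 for KO HDM, 11 for KO PBS and 8 for WT PBS.

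Agr2 and Clca1, genes of mucous cells, were in this class without a call. Agr2, a protein disulphide isomerase needed for mucin folding, read 27.7, 5.04 and 12.02 in WT PBS, 168, 186 and 131 in WT HDM, 17.3, 11.02 and 6.92 in KO PBS, and 16.9, 15.4 and 19.1 in KO HDM. Only WT HDM was bright, 9.45 times the next group, and the interaction of -2.67 ± 0.50 was not called (adjusted p = 0.16). A dim probe set of Clca1, a secreted protein of mucous cells, was alike, at 8.62 times the next group with an interaction of -2.23 (adjusted p = 0.16). The brightest probe set of Clca1 was high in both HDM groups instead, with means of 57.9 in WT PBS, 4403 in WT HDM, 33.1 in KO PBS and 1306 in KO HDM and an interaction of -1.18 (adjusted p = 0.96). The calpain gene Capn9 gave -1.72 (adjusted p = 0.54), the actin-severing scinderin gene Scin -1.98 (0.099), and Ocstamp, which acts in macrophage and osteoclast fusion, -1.67 (0.18).

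Of those bright in KO HDM, the mast cell protease gene Mcpt4 averaged 9.94 in WT PBS, 21.5 in WT HDM, 26.6 in KO PBS and 120 in KO HDM, with an interaction of 1.28 that was not called (adjusted p = 0.80). Cd209b, a lectin of marginal zone macrophages, gave 1.28 (adjusted p = 0.90). Its brighter probe set averaged 71.7 in WT PBS, 148 in WT HDM, 76.1 in KO PBS and 227 in KO HDM, with an interaction of 0.59 (adjusted p = 0.95). The probe sets bright in KO PBS were on set B, 2 of Apol11b and 1 of the alcohol dehydrogenase gene Adh5. Adh5 read 13.1, 37.8 and 10.7 in WT PBS, 29.7, 12.5 and 17.4 in WT HDM, 63.1, 55.7 and 81.3 in KO PBS, and 9.26, 8.73 and 15.1 in KO HDM, and its interaction of -1.85 was not called (adjusted p = 0.50). On this dim probe set KO PBS stood above all other samples, while the WT groups overlapped. The brighter Adh5 probe set on set A averaged 309 in WT PBS, 305 in WT HDM, 326 in KO PBS and 309 in KO HDM, with an interaction of -0.05 (adjusted p = 0.99).

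**Figure D4:**
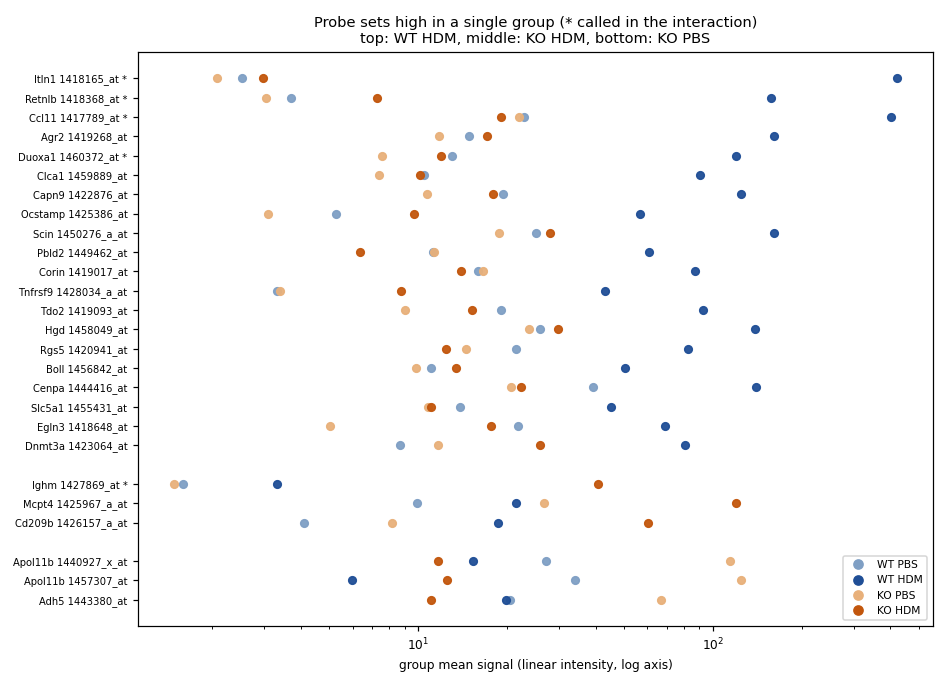
Mean signal in each of the 4 groups (linear intensity on a log axis) for the 26 single-gene probe sets that were dim in 3 groups and bright in 1, with a star where the interaction was called; a mean is over 3 samples. Itln1 shows the widest gap, with 420.2 in WT HDM and under 3 in every other group.

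Of 25 goblet cell and mucus genes measured, 2 were called lower for the interaction (0.0934% of all genes) and 19 had negative values (46.7% of all genes), with a median of -0.34. HDM raised 11 of them in WT lung (3.95% of all genes) and 6 in KO lung (4.16%) and lowered 0 in either. Spdef, a transcription factor of goblet cell differentiation, gave -1.80 (adjusted p = 0.46), the gel-forming mucin gene Muc5ac -1.02 (0.67), and Muc5b -0.18. Muc5ac averaged 17.0 in WT PBS, 262 in WT HDM, 14.6 in KO PBS and 114 in KO HDM. Genes of gut-type epithelium had 2 of 20 called lower and a median of 0.06, chitinases 2 of 7 and -0.21, and epithelial transport 4 of 27 and -0.12, against 0.0934% and 0.03 over all genes. Some genes are in more than 1 list, so these counts overlap. The lists were also chosen with earlier results of these data known, so the counts are descriptive.

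In the immune lists below, counts of called members read against 0.0934% of all genes called lower and 0.0055% called higher for the interaction, so that a count of 0 is near the background for lists of this size. The shares of all genes that rose were 4.16% in KO and 3.95% in WT lung. Alternatively activated macrophage genes had 1 of 24 called lower (Chil4) and a median of -0.19, although 20 of the 24 rose in WT lung and 18 in KO lung. Arg1, the arginase of such macrophages, gave -1.77 (adjusted p = 0.80) and Retnla, a resistin-like protein, 0.46. Macrophage genes had 0 of 27 called and a median of -0.02, with 18 rising in each genotype. The B cell list had 0 of 15 called, with 14 negative and a median of -0.33, and 10 rose in WT and 5 in KO lung. Fcer2a, the low-affinity IgE receptor, had the lowest value of that list, -1.21 (adjusted p = 0.32). A dimmer Fcer2a probe set gave -2.14 (adjusted p = 0.24), with a WT effect of 2.22 (adjusted p = 0.0014) and a KO effect of 0.09 (adjusted p = 0.92). Cell cycle genes had 0 of 37 called and a median of 0.37, with 21 rising in WT and 24 in KO lung. Mast cell and basophil genes had 0 of 15 called and a median of 0.42, with Tpsab1, a tryptase, at 1.46 (adjusted p = 0.85) the protease gene Mcpt2 at 1.30 (0.67) and the receptor gene Mrgprg at -3.55 (0.054). The IL-4 and IL-13 pathway list had 0 of 21 called, 15 negative values and a median of -0.15, with Socs1, a feedback inhibitor of cytokine signalling, at -1.20 (adjusted p = 0.85). No member was called among 9 eosinophil, 16 T cell, 12 neutrophil, 13 NK cell and 16 interferon-response genes, with medians of -0.03, 0.07, -0.14, -0.01 and 0.06.

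The uncalled genes with the smallest interaction p-values were taken as the next 10. Acta2 and Mrgprg, which belong to them, are given above. Slco4a1 gave -2.25 (adjusted p = 0.088) on a probe set that may cross-hybridise and 0.15 on another (adjusted p = 0.99). Fxyd4 gave -2.01 (adjusted p = 0.093). Slc6a20a, an amino acid transporter, read 11.02, 5.47 and 10.3 in WT PBS, 197, 147 and 152 in WT HDM, 12.5, 10.6 and 11.4 in KO PBS, and 39.1, 39.2 and 43.2 in KO HDM, with an interaction of -2.08 (adjusted p = 0.052). Fcgbp, a mucus protein, read 146, 129 and 182 in WT PBS, 804, 846 and 928 in WT HDM, 109, 128 and 87.2 in KO PBS, and 207, 208 and 244 in KO HDM, with an interaction of -1.47 (adjusted p = 0.057). Both rose in each genotype, by 1.36 in KO lung for Slc6a20a (adjusted p = 0.0042) and by 0.99 for Fcgbp (adjusted p = 0.0040). Itgax, the CD11c integrin of dendritic cells and lung macrophages, had means of 239 in WT PBS, 1241 in WT HDM, 317 in KO PBS and 862 in KO HDM and an interaction of -0.92 (adjusted p = 0.057). Synpo2, an actin-bundling protein of muscle, gave -1.02 (adjusted p = 0.057) and the malic enzyme gene Me1 -1.22 (0.080). Further probe sets of Synpo2 gave -1.14, -0.02 and -0.21, and a further probe set of Me1 gave -0.56, none of them called. The amine oxidase gene Aoc3, expressed in smooth muscle and endothelium, gave -1.92 (adjusted p = 0.093).

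How many probe sets were called turned on single samples. Leaving out 1 sample gave 16, 16 and 13 calls without WT PBS 1, 2 and 3, 11, 11 and 13 without WT HDM 1, 2 and 3, 11, 14 and 14 without KO PBS 1, 2 and 3, and 9, 12 and 9 without KO HDM 1, 2 and 3. Of the 22 called probe sets, 8 stayed called in all 12 of these fits: Itln1, 1 of the Pigr probe sets, Retnlb, Rbp4, Ighm, Aox3, Actg2 and Ccl11. The other 14 stayed called in some of them. With those 3 muscle-bearing samples left out, 1 WT HDM sample remains, which is assumed to vary like the other groups. In that fit 6 probe sets were called, and 4 of them were among the 22: Itln1, Pigr, Retnlb and Rbp4.

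**Figure D5:**
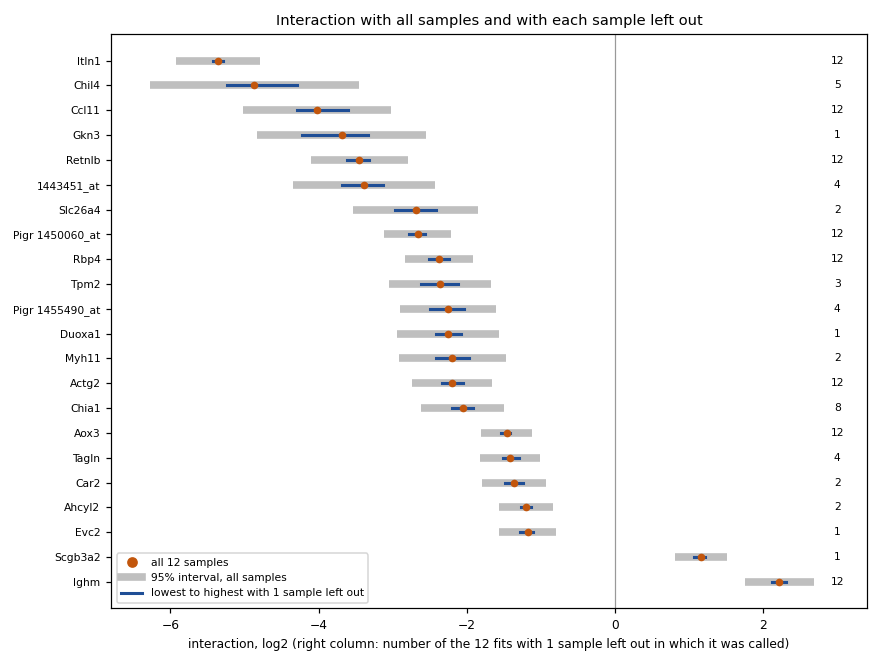
Interaction of each of the 22 called probe sets (log2) in the fit of all 12 samples (points, with grey bars for the 95% interval), with a blue line from the lowest to the highest value of the 12 fits that left out 1 sample and, at the right, the number of those fits in which it was called. The values keep their sign throughout, and 8 probe sets stay called in all 12 fits.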

How the data were processed

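Lung RNA of 12 samples was measured on 24 arrays, and the deposited tables hold a linear intensity for each probe set of an array. Per the file headers each column is 1 sample; the software behind the values is not given in the sources used here. With 2% of values trimmed at both ends, all arrays had a mean of 150, so the authors had scaled them, and that scaling was kept. No column lacked a sample (0 unmapped). Probe sets present on both sets (100) entered through set A, so that set A gave 22626 and set B 22411. Values were taken as log2(intensity + 7) on set A and log2(intensity + 11) on set B, about the 10th percentile of each set, with no filter on low signal. One limma model (version 3.58.1, R 4.3.3) with the 4 groups and 8 residual degrees of freedom was fitted over all probe sets, with eBayes and an intensity trend, and p-values were adjusted by Benjamini-Hochberg within a comparison at 0.05. The steps were run on simulated data with interactions of known size, placed only in probe sets above the median of the mean log2 signals. The planted sizes exceeded those of the smallest called interactions. That run therefore does not cover dim probe sets or small interactions. Probe sets were linked to genes by the arrays' platform annotation, which can be old, where it gave a single gene (20380 on set A, 14661 on set B). Names are RefSeq symbols where the gene was found there (20351 on set A, 14486 on set B) and those of the annotation otherwise. For lists, a gene was represented by its probe set with the highest mean. Named were all called probe sets, the 10 uncalled genes with the smallest interaction p, probe sets bright in 1 group only and list members with the smallest p. Values of Arg1, Ccl24, Ccr3, Chil3, Cnn1, Lmod1, Muc5ac, Muc5b, Myl9, Retnla, Socs1, Spdef and Tpsab1 lie outside that rule and were chosen after they had been seen. The members and the lists were chosen with earlier results of these data known. Alternatives covered the filter, pseudocount, normalization, variance model, array weights, replicate number as a block, skeletal muscle signal, the actin ratio and each sample left out in turn. Suffixes matter for single probe sets: those ending in _s_at may match several genes and those in _x_at may cross-hybridise. The number of arrays limits the precision.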

Additional observations from a re-analysis of the deposited data

Results flagged for a closer look

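In the fit of all 12 samples, the effect of HDM differed between the 2 genotypes for the 22 probe sets called for the interaction. The test was of that difference itself (limma, adjusted over all probe sets). With 1 sample left out in turn, 8 of the 22 stayed called in all 12 fits and 14 in some of them. Gkn3, Duoxa1, Evc2 and Scgb3a2 each stayed called in 1 of those fits. Smaller rises, or falls, in KO than in WT lung gave -5.35 for Itln1, -4.87 for Chil4, -4.02 for Ccl11, -3.69 for Gkn3, -3.45 for Retnlb, -3.39 for 1443451_at, -2.69 for Slc26a4, -2.66 and -2.26 for Pigr, -2.38 for Rbp4, -2.36 for Tpm2, -2.26 for Duoxa1, -2.19 for Actg2, -2.19 for Myh11, -2.05 for Chia1, -1.46 for Aox3, -1.42 for Tagln, -1.37 for Car2, -1.20 for Ahcyl2 and -1.18 for Evc2. Ighm (2.22) and Scgb3a2 (1.16) went the other way. The result for Ighm comes from 1 of its 11 probe sets.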

How the results depend on the processing

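Against 22 calls of the interaction in the fit of all 12 samples, eBayes without an intensity trend gave 11, the actin ratio as a covariate 11, and the fit without the 3 samples with skeletal muscle signal 6. Leaving out 1 sample gave 9 to 16. For the HDM effect in WT (2174 calls) the numbers were 799 without the muscle samples and 1229 to 2028 with 1 sample left out, and for that in KO (2485 calls) 1360 to 2561 with 1 left out. KO against WT after HDM had 156 calls, against 21 without the muscle samples, 93 with the actin covariate, 61 with skeletal muscle signal as a covariate and 76 to 167 with 1 sample left out. KO against WT after PBS had 13 calls, against 4, 7 with the muscle covariate and 6 to 18. The cause of these shifts was not tested. With a pseudocount of 1 there were 17 interaction calls, with 30 there were 31, and with the earlier filter on mean signal 27, of which 18 were among the 22. The rest of the 22, the probe sets of Itln1, Retnlb, Ighm and Duoxa1, were removed by that filter and not tested under it. Titles give the groups the same replicate numbers. Of 18 same-numbered pairs, 1 had deviations correlated over 0.1 (range -0.05 to 0.12). Pairs with unlike numbers were not compared, so whether same-numbered samples were handled together was not tested. With the replicate number as a block the interaction had 12 calls, all among the 22. Reversed signs were few and lay among uncalled values: Sftpb, 0.17 in the fit of all samples, was -0.023 after quantile normalization, and Scgb1a1, 0.12, was -0.12 after quantile normalization, -0.038 without the muscle samples and -0.011 to 0.24 with 1 sample left out. Over single genes, lists and the counts of probe sets bright in 1 group, 1178 values under other settings were labelled unchanged. For genes this meant the same sign and the same side of the threshold, and for lists the same sign of the median. Another 74 lost the call and 36 gained it. The 5 that shifted were all counts of probe sets bright in 1 group, under another threshold or ratio. With 1 sample left out, 959 were unchanged, 128 lost the call and 4 gained it. Signal over background limits the dim probe sets, as no detection calls were used.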

Other observations

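Alveolar type 1 and endothelial genes, which the text has not described, had many members called lower after HDM in both genotypes and 0 called for the interaction (0.0934% of all genes were called lower). Of 20 alveolar type 1 genes, 13 fell in WT lung (3.53% of all genes) and 13 in KO lung (3.73%), with a median interaction of -0.02. Of 32 endothelial genes, 19 fell in WT and 17 in KO lung, with a median interaction of 0.09. Of 21 alveolar type 2 genes, 4 rose and 2 fell in WT lung (3.95% of all genes rose), 3 rose and 0 fell in KO lung (4.16% rose), and the median interaction was 0.05. Of 33 extracellular matrix genes, 12 rose and 3 fell in WT lung, 8 rose and 6 fell in KO lung, and 0 were called for the interaction, with a median of -0.09.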
